A study of Mus musculus with 14 samples.

Results

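The genes described here encode the collagens, the laminins, both nidogens and perlecan. They were chosen by gene symbol alone (Col, number, a, number; Lama, Lamb or Lamc with a number; Nid1, Nid2; Hspg2), without use of their values. The rule took 61 of 12488 probe sets, which represent 43 genes, and 48 of these probe sets, for 36 genes, passed the filter on dim signals. The 43 genes were placed in 5 classes by the protein they encode: 5 fibrillar collagens, 7 collagens of cartilage fibrils and growth plate, 4 network collagens, 19 basement membrane genes and 8 other collagens. The tested genes number 5, 4, 4, 17 and 6 in these classes.

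Collagens are triple helices of alpha chains. The fibrillar chains build the tensile fibres of connective tissue, and in breast they are made mainly by stromal fibroblasts. Basement membranes are sheets beneath epithelium and around fat, muscle, nerve and vessel cells, in which laminin trimers and collagen IV form separate networks that nidogens and perlecan link. Collagens II, IX and XI form the thin fibrils of cartilage, and outside cartilage their transcripts are found in fewer tissues.

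Total RNA from 14 samples of mouse mammary tissue was measured on 1-color arrays. MMTV-neu mice carry the neu (erbB2) oncogene under the MMTV promoter, which is active in mammary epithelium. The groups were 5 MMTV-neu tumors, 2 later MMTV-neu tumors called set B, 4 preneoplastic MMTV-neu glands that surrounded a tumor (adjacent gland) and 3 pools of wild-type gland. A pool combined RNA of 5 mice on a mixed FVB and CF-1 background. Pool 40 was 31 weeks old and 87.5% FVB with 12.5% CF-1, and pools 41 and 42 were 41 weeks old and 97% FVB with 3% CF-1. The labels give the wild-type glands as age-matched, give no age or strain for the transgenic samples, and do not say whether a tumor and an adjacent gland shared an animal. Since no label says that samples of a group came from separate animals, p-values measure the spread between these samples, which may be technical in part.

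The arrays came from 5 lots, and the lot numbers as written put tumors and wild-type pools in different lots. Tumors 22, 24 and 26 shared lot 2001815 with adjacent glands 23 and 25. Adjacent glands 49 and 51 shared lot 2004907 with wild-type pool 40. Tumors 50 and 52 (lot 2004097), pools 41 and 42, and set B each had a lot of their own. Lot is therefore given beside the results it touches. The trimmed mean intensity was 1500.67 to 1500.9 on every array. Precision is limited by how few arrays each group has.

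Cartilage collagens and the remaining classes moved in opposite directions in tumors. Of the 36 tested genes, 5 were higher and 21 were lower in tumors than in wild-type gland at an adjusted p under 0.05 (limma), the threshold for a call throughout. Over all 6397 tested genes, 30.6% were called, 15.8% higher and 14.7% lower. The median log2 difference of the 36 genes was -1.10, against 0.13 over all genes. All 4 tested cartilage genes were higher (median 2.87), with the call of Col9a3 lost in 11 of 18 alternative settings. All 5 fibrillar genes (median -1.78), 3 of 4 network genes (median -2.09), 10 of 17 basement membrane genes (median -1.14) and 3 of 6 other collagens (median -0.98) were lower. The collagen IV chain Col4a5 was the fifth gene that rose.

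**Figure D1:**
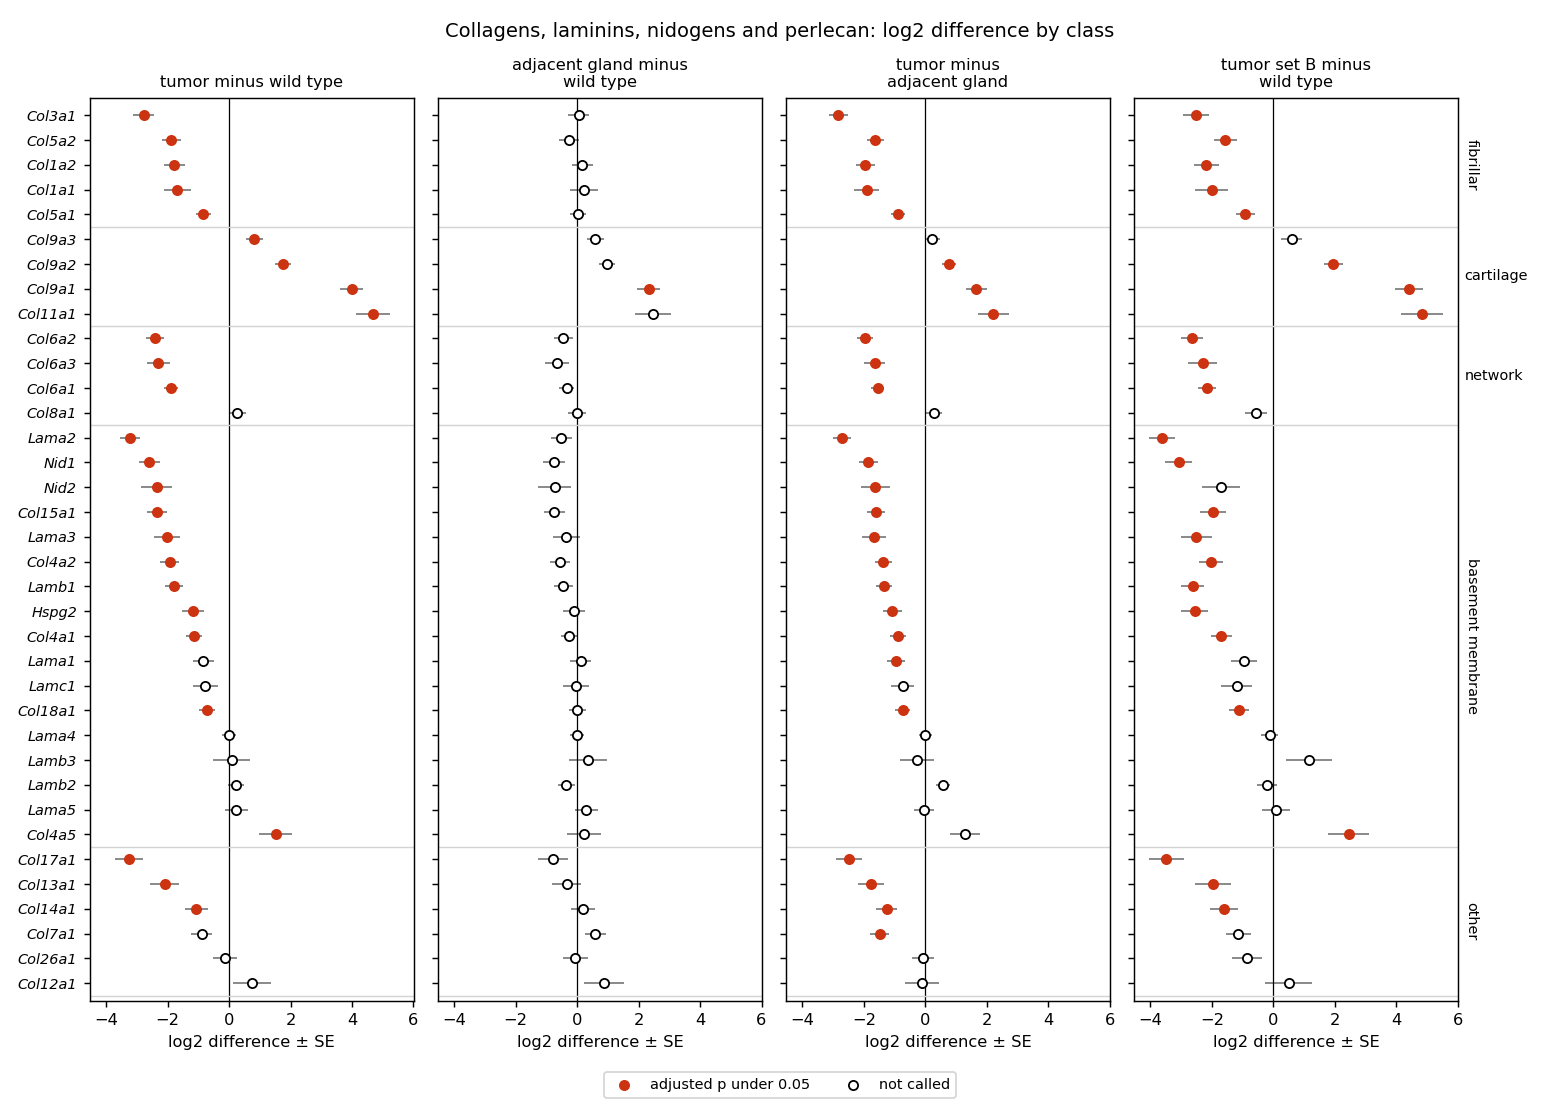
Log2 difference ± SE (x axis) of the 36 tested genes (y axis, grouped by class) in 4 comparisons; filled points have an adjusted p under 0.05 and open points were not called. Cartilage genes lie to the right of 0 in every panel, while 21 genes of the remaining classes fell in tumors against wild-type gland and Col9a1 alone was called in adjacent gland.

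The cartilage genes with the largest rises were Col11a1, Col9a1 and Col9a2. Col11a1 encodes a chain of collagen XI, which sits in the core of cartilage fibrils, and Col9a1 and Col9a2 encode chains of collagen IX, which coats them. The 250 bases before each annotated start (RefSeq, GRCm38.p6, plus strand, 5′ to 3′) are shown because these genes moved together. Capitals mark matches on either strand to a GC box (GGGCGG) or a CCAAT box (CCAAT). The windows are chr3:114030290-114030539 for Col11a1, chr1:24177360-24177609 and chr1:24194953-24195202 for 2 starts of Col9a1, and chr4:121039316-121039565 for Col9a2.
Col11a1: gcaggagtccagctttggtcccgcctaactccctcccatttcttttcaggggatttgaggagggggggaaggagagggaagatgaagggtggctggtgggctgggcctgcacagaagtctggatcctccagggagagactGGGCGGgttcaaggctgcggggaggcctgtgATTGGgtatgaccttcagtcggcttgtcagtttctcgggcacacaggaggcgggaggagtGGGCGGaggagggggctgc
Col9a1 first start: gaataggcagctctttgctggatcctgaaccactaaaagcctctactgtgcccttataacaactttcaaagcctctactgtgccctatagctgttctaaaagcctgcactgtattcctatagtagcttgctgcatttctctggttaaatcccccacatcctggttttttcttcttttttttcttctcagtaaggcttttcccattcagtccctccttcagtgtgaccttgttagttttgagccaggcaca
Col9a1 second start: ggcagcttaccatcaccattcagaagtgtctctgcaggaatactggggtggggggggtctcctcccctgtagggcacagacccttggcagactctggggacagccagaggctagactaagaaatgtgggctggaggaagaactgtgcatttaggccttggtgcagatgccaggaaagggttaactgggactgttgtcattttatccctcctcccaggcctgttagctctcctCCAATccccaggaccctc
Col9a2: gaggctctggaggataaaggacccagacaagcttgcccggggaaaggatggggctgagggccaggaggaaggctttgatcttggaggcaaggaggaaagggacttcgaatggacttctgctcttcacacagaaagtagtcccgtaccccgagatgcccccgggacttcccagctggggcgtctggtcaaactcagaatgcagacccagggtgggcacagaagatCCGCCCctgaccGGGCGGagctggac

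The Col11a1 window held 2 GC boxes and 1 CCAAT box on the minus strand. The Col9a2 window held 2 GC boxes, 1 on each strand, and the second Col9a1 window held 1 CCAAT box, 14 to 18 bases before the start. The first Col9a1 window held none of the 5 motifs searched, which also included a TATA box (TATAAA), a Sox core (AACAAT) and a core of Sox and Tcf factors (ACAAAG). These further 3 motifs were in none of the 4 windows. Of 32851 mouse windows of this length, 32.7% held a GC box, 33.8% a CCAAT box, 12.4% a TATA box, 9.42% the Sox core and 16.5% the Sox and Tcf core. The corresponding shares of the 33 windows of these genes were 48.5%, 33.3%, 15.2%, 3.03% and 6.06%. A window was found for 29 of the 43 genes.

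Col11a1 had intensities of 363, 374 and 266 in the wild-type pools (40, 41, 42) and of 10875, 8688, 5501, 14008 and 6045 in tumors 22, 24, 26, 50 and 52. The adjacent glands 23, 25, 49 and 51 had 4027, 1540, 3954 and 451, and the set B tumors 80 and 81 had 7236 and 12486. Every tumor was above every adjacent gland, and every adjacent gland was above every wild-type pool, with adjacent gland 51 closest to the pools. Col11a1 rose 25.7-fold in tumors against wild type (log2 difference 4.68 ± 0.55 SE, adjusted p = 1.14e-05, limma). It rose 4.65-fold against adjacent gland (2.22 ± 0.51, adjusted p = 0.00685). The difference of adjacent gland from wild type was 2.46 ± 0.58 and was not called (adjusted p = 0.0502).

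Col9a1 had intensities of 1129, 1106 and 864 in the wild-type pools. The adjacent glands had 6793, 3808, 8730 and 3095, the tumors 11096, 11121, 15292, 32306 and 18824, and set B 17220 and 27985. The 3 groups did not overlap, and the order was wild type, adjacent gland, tumor. Col9a1 rose 15.9-fold in tumors against wild type (3.99 ± 0.36, adjusted p = 8.26e-07, limma) and 3.17-fold against adjacent gland (1.66 ± 0.33, adjusted p = 0.00271). In adjacent gland it rose 5.01-fold against wild type (2.33 ± 0.38, adjusted p = 0.0114).

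Col9a2 had intensities of 1174, 1260 and 1103 in the wild-type pools, 2546, 2488, 2327 and 1911 in adjacent glands, 4710, 2548, 2760, 5323 and 5442 in tumors, and 3767 and 5513 in set B. Tumor 24 lay just above adjacent gland 23, so the groups did not overlap but nearly touched. The rise was 3.35-fold against wild type (1.75 ± 0.26, adjusted p = 9.69e-05, limma) and 1.71-fold against adjacent gland (0.78 ± 0.24, adjusted p = 0.0363). The latter call was lost in 12 of 20 alternatives, including 7 of 9 fits with 1 array left out (any adjacent gland, or tumor 22, 50 or 52). Col9a3, the third collagen IX chain, had 1973, 1229 and 2064 in wild-type pools and 3456, 4053, 1626, 3494 and 3162 in tumors, which overlapped at tumor 26. Its rise was 1.77-fold (0.82 ± 0.27, adjusted p = 0.0318, limma). The Col9a3 call was lost in 11 of 18 alternatives, including 5 of 8 fits with 1 array left out (pool 41 or tumor 22, 24, 50 or 52), equal medians, no filter and every lot block.

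**Figure D2:**
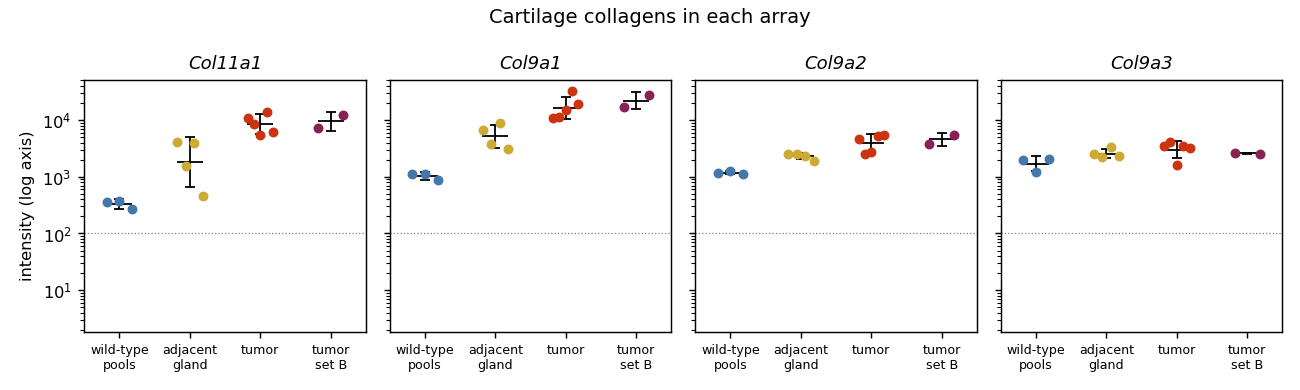
Intensity (log axis) of the 4 tested cartilage collagen genes on each array, by group; bars show the geometric mean with 1 SD on the log2 scale and the dotted line is the floor of 101.42, at which lower values are drawn. Col11a1 and Col9a1 step up from wild-type pools to adjacent glands to tumors, while Col9a3 of tumor 26 (1626) lies among the wild-type pools.

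The remaining cartilage genes, Col2a1, which encodes the main collagen of cartilage, Col10a1 of hypertrophic cartilage and Col11a2, did not pass the filter, with highest intensities on any array of 383, 399 and 270. Of 9 cartilage markers, 4 were on the array (Acan, Hapln1, Matn1 and Matn3), all 4 were dim, and their summed intensity was 114 to 345 in wild-type pools, 206 to 538 in adjacent glands and 135 to 488 in tumors. The class is thus named by its genes and not by a tissue. Of 3 Schwann cell markers measured, Sox10, which encodes a transcription factor of glia, rose (1.89 ± 0.31, adjusted p = 0.000248, limma) and S100b and Mbp were not called. Their summed intensity was 5541 to 6840 in wild-type pools, 8455 to 15459 in adjacent glands and 10117 to 27233 in tumors. The summed intensity of 10 luminal epithelial markers was 41511 to 43889, 45890 to 77209 and 69018 to 108528. The part of either list in the rise of the collagens was not tested.

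With lot as a fixed block, Col9a1 stayed called against wild type (3.48 ± 0.69, adjusted p = 0.0194, limma), and Col11a1 (3.57 ± 1.26, adjusted p = 0.168) and Col9a2 (1.20 ± 0.45, adjusted p = 0.196) were not. Pools 41 and 42 had a lot of their own, so the wild-type side of this block was pool 40 alone. The same holds with the lots merged below. Tumors 50 and 52 also had a lot of their own as numbered. The tumor side of this block was therefore tumors 22, 24 and 26, and only the merged lots bring in tumors 50 and 52. Pool 40 was the younger pool, with more CF-1 (31 weeks old, 12.5%). Lot numbers 2004097 and 2004907 differ in the order of their digits, and the labels do not settle whether they are 1 lot. With these numbers merged in the block, Col9a1 (4.19), Col11a1 (4.37 ± 0.95, adjusted p = 0.0117, limma) and Col9a2 (1.92 ± 0.41, adjusted p = 0.0102, limma) were called. Within lot 2001815, which held 3 tumors and 2 adjacent glands, the tumor minus adjacent gland differences of Col11a1, Col9a1 and Col9a2 were 1.69, 1.28 and 0.35, and none was called. Within lot 2004907, which held 2 adjacent glands and pool 40, the adjacent gland minus wild-type differences were 1.88, 2.20 and 0.85, and none was called. The Col9a1 call in adjacent gland was also lost without pool 42.

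The fibrillar collagens fell together in tumors. Col3a1, which encodes the chain of collagen III, had intensities of 18762, 17078 and 27892 in wild-type pools, 16927, 16917, 19073 and 38535 in adjacent glands and 3252, 5668, 3087, 2212 and 1977 in tumors. Every one of these tumors was below every pool and every adjacent gland. Col3a1 fell by 2.78 on the log2 scale against wild type (SE 0.34, adjusted p = 1.62e-05, limma), which is 6.88-fold. Against adjacent gland it fell by 2.83 (SE 0.31, adjusted p = 1.2e-05, limma).

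Col1a1 and Col1a2 encode the chains of collagen I, the most abundant fibrillar collagen. Col1a2 had 11667, 12631 and 17110 in wild-type pools, 12169, 13375, 12576 and 26946 in adjacent glands and 4051, 8167, 3680, 3338 and 2417 in tumors, with tumor 24 the highest of the tumors. The difference from wild type was -1.78 ± 0.33 for Col1a2 and -1.68 ± 0.44 for Col1a1 (adjusted p = 0.000807 and 0.0088, limma). The chains of collagen V, which starts the fibrils, also fell, with log2 differences of -1.87 for Col5a2 and -0.84 for Col5a1. None of the 5 genes was called between adjacent and wild-type gland (median difference 0.05).

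Collagen VI, which forms beaded filaments around cells, fell in all of its 3 measured chains. Col6a2 had 5976, 6734 and 8316 in wild-type pools, 3279, 5040, 4256 and 9511 in adjacent glands and 1242, 1905, 1148, 1004 and 1449 in tumors, with no overlap between these tumors and the pools or adjacent glands. The log2 differences from wild type were -2.40 for Col6a2, -2.30 for Col6a3 and -1.88 for Col6a1. Col8a1, a chain of the hexagonal networks of collagen VIII, differed by 0.27 ± 0.28 and was not called (adjusted p = 0.496, limma).

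The plot of all genes by array shows that the fibrillar and collagen VI genes were low in each of the 7 tumors.

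**Figure D3:**
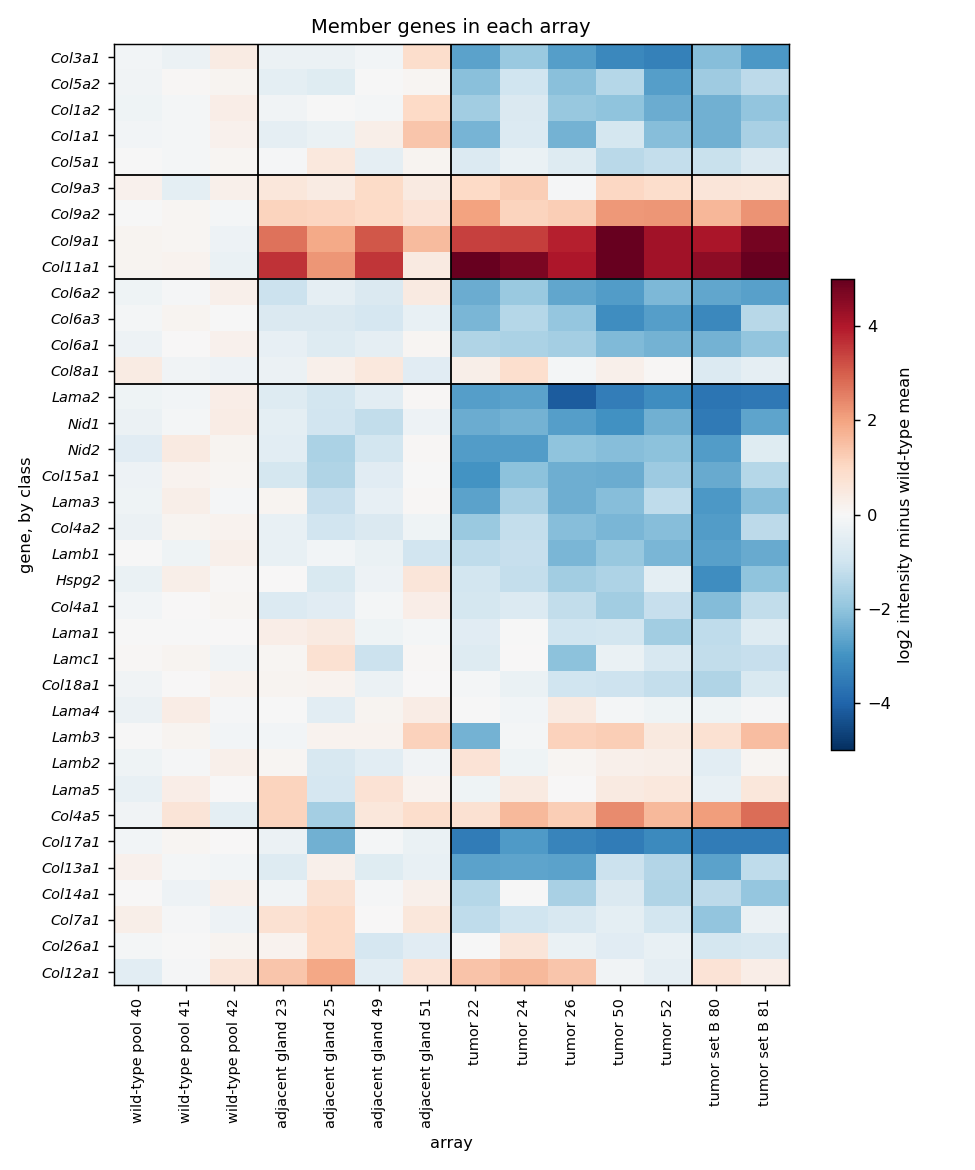
Log2 intensity of each tested gene (y axis, by class) on each of the 14 arrays (x axis), minus the mean of the 3 wild-type pools, with values under the floor set to it; red is higher and blue lower. Col11a1 and Col9a1 are red in all 7 tumors and most fibrillar, network and basement membrane genes are blue there, while Lama4, Lama5, Lamb2 and Col8a1 stay close to white.

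The basement membrane genes were divided. Lama2 and Nid1 fell most. Lama2, the alpha chain of the laminins of muscle, nerve and fat, had 2239, 2343 and 3264 in wild-type pools, 1629, 1369, 1768 and 2675 in adjacent glands and 382, 398, 146, 237 and 299 in tumors, without overlap. It fell by 3.23 against wild type (SE 0.33, adjusted p = 2.88e-06, limma), or 9.37-fold, and its difference from adjacent gland was -2.71. Nid1, which encodes the linker nidogen-1, had 976, 1117 and 1545 in wild-type pools and 215, 229, 178, 146 and 228 in tumors, also without overlap, and fell by 2.60 (SE 0.34, adjusted p = 3.27e-05, limma). Nid2 fell by 2.36, and tumors 22 and 24 were at the floor, so its fold of 5.13 is at least that.

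Other laminin chains that fell were Lama3, an alpha chain of epithelial laminins (-2.02 on the log2 scale), and Lamb1, a laminin beta chain (-1.78). Of the 9 tested laminin chains 3 were thus called against wild type, where 30.6% of all genes were. Lama4, the alpha chain of vessel laminins, had 2983, 4695 and 3506 in wild-type pools and 3646, 3306, 5054, 3398 and 3177 in tumors, with overlapping ranges and a difference of 0.00 ± 0.22 (adjusted p = 0.999, limma). Lama5, the broadest epithelial alpha chain, and Lamb2 differed by 0.24 ± 0.36 and 0.22 ± 0.26. Lamb3, the beta chain of the epithelial laminin with Lama3, spread from 348 in tumor 22 to 4218 in tumor 50 and differed by 0.08 ± 0.59. Lamc1, the gamma chain shared by most laminins, differed by -0.77 ± 0.41 (adjusted p = 0.167) and Lama1 by -0.84 ± 0.34 (adjusted p = 0.0706, limma). A p that misses the threshold does not show that these chains were equal between the groups.

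**Figure D4:**
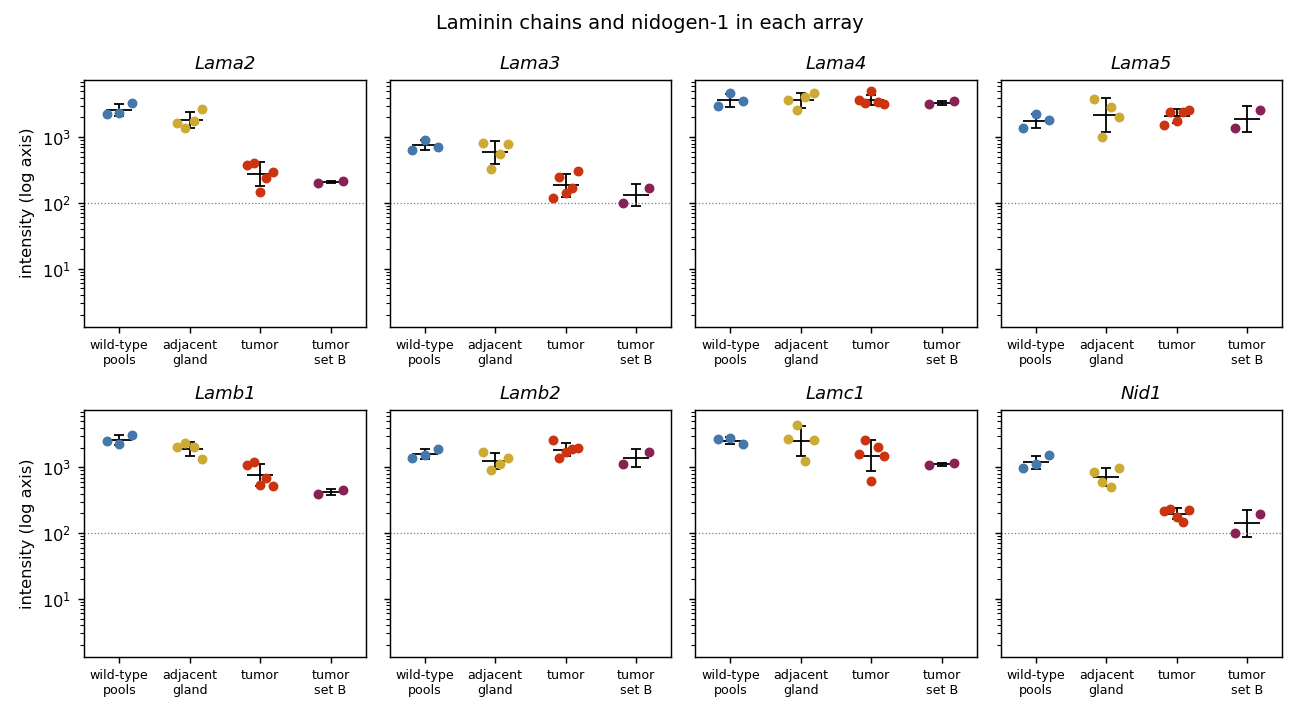
Intensity (log axis) of 7 laminin chains and Nid1 on each array, by group, with the geometric mean and 1 SD on the log2 scale; the dotted line is the floor of 101.42, at which lower values are drawn. Lama2, Lama3, Lamb1 and Nid1 are lower in tumors than in wild-type pools, while the ranges of Lama4, Lama5 and Lamb2 overlap.

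Collagen IV chains went in different directions. Col4a1 and Col4a2, neighbouring genes read from opposite strands whose products form the common collagen IV trimer, fell by 1.14 and 1.93 on the log2 scale (SE 0.27 and 0.31, adjusted p = 0.00518 and 0.000222, limma). Col4a5, a chain of other collagen IV trimers, had 394, 694 and 310 in wild-type pools and 736, 1341, 1044, 2238 and 1344 in tumors, which did not overlap. It rose 2.85-fold (1.51 ± 0.53, adjusted p = 0.0422, limma). The call was lost with arrays scaled to equal medians, with quantile normalization and without the filter. It was also lost with lot as a fixed block, as numbered and with the merged lots, where the differences were 2.38 and 2.21. In both blocks the wild-type side was the younger pool only. As numbered, tumors 50 and 52 did not enter the difference either. The Col4a5 call was kept with lot as a random block, but not in every fit with an array left out. Col4a3 and Col4a4 were dim on every array, at most 63.4 and 95.4. Col15a1 and Col18a1, which encode collagens of basement membrane zones, fell by 2.35 and 0.73, and Hspg2, perlecan, fell by 1.17. The calls of Col18a1 (adjusted p = 0.0439, limma) and Hspg2 were lost under every lot block. Their differences were -0.60 ± 0.45 and -0.37 ± 0.66 with lot as a fixed block.

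Among the other collagens Col17a1, a transmembrane collagen of the hemidesmosomes of basal epithelial cells, had 1036, 1228 and 1146 in wild-type pools, 930, 214, 1064 and 893 in adjacent glands and 59.9, 160, 114, 52.1 and 124 in tumors. Tumors 22 and 50 were below the floor, so its fall of 9.58-fold is at least that (adjusted p = 6.33e-05, limma). The defining basal keratins Krt5 and Krt14 were dim in these data. Of 3 tested basal markers 1 was called, Trp63, a transcription factor of basal cells, which fell by 0.97. The summed intensity of 5 basal markers was 2478 to 3685 in wild-type pools and 1670 to 4493 in tumors, which overlap. Col13a1 fell by 2.10, and tumors 22 and 26 were at the floor, so its fold of 4.28 is at least that. Col14a1, which binds fibrils, fell by 1.06, a call that was lost in 11 of 18 alternatives, including 6 of 8 fits with 1 array left out (any pool, or tumor 22, 26 or 52). Col7a1, of anchoring fibrils, was not called against wild type (-0.90 ± 0.33, adjusted p = 0.0502) but fell by 1.49 against adjacent gland (adjusted p = 0.00298, limma). Col12a1 and Col26a1 were not called in any comparison, and Col19a1 and Col22a1 did not pass the filter.

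In adjacent gland the classes other than cartilage had medians closer to wild type than the cartilage class. Of the 36 genes, Col9a1 alone was called against wild type, against 1.25% of all genes (0.782% higher, 0.469% lower). The 4 cartilage genes had every adjacent gland above every wild-type pool, as did 7.49% of all genes. In the other direction, Col6a3 alone had every adjacent gland below every pool (7048 to 9758 against 11754 to 13839), as did 483 of all 6397 genes. The medians were 1.65 for cartilage, 0.05 for fibrillar, -0.39 for network, -0.25 for basement membrane and 0.07 for other collagens, and 0.05 over all genes. Tumors compared with adjacent gland gave 3 higher and 23 lower of 36, where 15.0% of all genes were called (5.75% higher, 9.29% lower). The comparisons share samples, so they are not independent of each other.

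Set B gave 4 higher and 20 lower of 36 against wild type, where 23.6% of all genes were called (11.3% higher, 12.4% lower). Col11a1 rose 28.8-fold, Col9a1 21.4-fold, Col9a2 3.87-fold and Col4a5 5.48-fold, while Lama2 fell 12.3-fold. Set B and the first tumors share the wild-type pools as control and differ in lot. No gene of the 36, and 0% of all 6397 genes, was called between set B and the first tumors in limma. At an unadjusted p under 0.05 there were 3 and 617. The largest of the 36 differences was that of Hspg2 (-1.39 ± 0.40, adjusted p = 0.348, limma), and 2 arrays in set B leave wide errors, so this does not show that the tumor sets were alike.

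To compare chains of the same kind within each array, all 27 pairs of tested chains from 8 protein families were examined. The difference of log2 intensity in each pair was compared between groups by an exact two-sided permutation test, adjusted over the 27 pairs. Between tumors and adjacent gland 10 pairs passed (adjusted p = 0.0429, the lowest that was reached, with every one at the smallest exact p of 0.0159). The log2 difference of the first chain from the second was lower in tumors for Lama2 and Lama3 from each of Lama4 and Lama5, Lama2 from Lama1, Lamb1 from Lamb2, Col4a2 from Col4a5, Col5a1 and Col5a2 from Col11a1, and Col9a3 from Col9a1. The change was -2.72 for Lama2 from Lama4 and -1.91 for Lamb1 from Lamb2. For Col4a2 from Col4a5 the difference went from 4.31 in adjacent gland to 1.65 in tumors. Such a change shows that the signals of the probe sets of a pair changed unequally and gives no order of the chain levels. Probe sets of the same gene also changed unequally, from -0.73 to -3.50 for Col18a1 in tumors against wild type. The test therefore cannot tell unequal change of the chains from unequal response of their probe sets. The families were chosen after the data had been seen. Pairs share chains, so they are not independent, and the adjusted p depends on how many pairs reach the smallest exact p. Between tumors and wild type no pair passed. There, 13 pairs had the smallest exact p that 5 against 3 arrays allow, 0.0357, which is 0.0742 after adjustment. Adjacent gland against wild type cannot go below an exact p of 0.0571, and no pair passed.

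Genes that act on these proteins went in both directions in tumors against wild type, where 15.8% of all genes were called higher and 14.7% lower. Of 11 tested genes for collagen folding, P4hb, a subunit of prolyl hydroxylase, rose (2.07), and Sparc, a collagen-binding matrix protein, P3h3 and Crtap fell (-2.78, -1.07 and -0.82 on the log2 scale). Of 5 tested genes of procollagen cleavage and crosslinking, Pcolce and Lox fell (-1.83 and -1.13). Of 11 receptors, 5 rose, among them the collagen receptor Ddr1 (1.42) and the laminin-binding integrin chains Itgb4 (1.25) and Itga6 (1.10), and Itga7, an integrin chain of muscle, fell (-1.36). Of 8 other basement membrane proteins, 3 rose, with the integrin ligand Npnt at 5.85, and Fbln1 (-1.58) and Smoc1 (a geometric mean of 7935 in wild type and 1987 in tumors) fell. Of 7 collagenases, gelatinases and their inhibitors, Mmp9, Timp3 and Ctsk fell, with Mmp9 at the floor in all tumors. Of 11 TGF-beta and matrix regulators, Ccn1, Tgfb3 and Ccn2 rose (1.39, 1.17 and 0.91) and Pdgfra, Postn and Pdgfrb fell (-3.02, -2.54 and -1.17). Summed intensities did not overlap between tumors and wild-type pools in any of these 6 lists. A sum is carried by its brightest genes, so it does not show that a list moved as a whole. Among all 6397 single genes, every tumor was above every pool for 1202 and below every pool for 1090. The sums were lower in tumors for folding (31542 to 48179, against 52779 to 72961 in pools), for cleavage and crosslinking (3525 to 5866 against 6080 to 8150), for collagenases, gelatinases and inhibitors (8927 to 15116 against 18346 to 21239) and for TGF-beta and matrix regulators (15411 to 35227 against 39232 to 43951). They were higher for receptors (46573 to 58171 against 31517 to 40216) and other basement membrane proteins (28052 to 46478 against 20143 to 25000).

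Markers of fibroblasts, adipocytes, vessels and muscle moved with the genes that fell, and 5 of 7 macrophage markers were not called. Of 8 fibroblast markers measured, all 8 fell in tumors (median -3.38). Their summed intensity was 79511 to 89686 in wild-type pools, 61886 to 71905 in adjacent glands and 5650 to 13798 in tumors. The fibroblast list includes Col14a1, and shares Pdgfra and Fbln1 with the lists above. For 6 adipocyte markers the sums were 164821 to 229730, 76526 to 136133 and 1625 to 3659, and all 6 fell. Endothelial markers fell in 5 of 7 (13116 to 15891 in wild type, 3049 to 4200 in tumors). Pericyte and smooth muscle markers fell in 6 of 7 (23810 to 30196 and 2992 to 6418). Skeletal muscle markers fell in 6 of 8, with 1 higher. Sums of 9 skeletal muscle markers were 49793 to 94131 in wild-type pools, 1439 to 34479 in adjacent glands and 1444 to 7523 in tumors. Macrophage markers fell in 2 of 7 (median -0.23), and their sums overlapped, at 29991 to 31070 in wild-type pools and 14675 to 36570 in tumors. In bulk tissue, fewer cells of a type and less RNA per cell cannot be told apart, and the part of these cells in the falls was not tested. The actin 3′ to 5′ log2 ratio, a sign of RNA quality, was 0.90 to 1.51 in wild-type pools, 0.38 to 1.52 in adjacent glands and 0.08 to 0.76 in tumors. The same ratio for Gapdh was 0.11 to 1.48, -0.27 to 0.27 and -0.25 to 0.43, so there pools and tumors overlapped. The part of RNA quality was not tested either.

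With lot as a fixed block, 2 falls were called against wild type. They were Col13a1 (-3.14 ± 0.68, adjusted p = 0.0276, limma) and Col7a1, which was not called without the block (-1.92 ± 0.45, adjusted p = 0.0396, limma). Lama2 was -2.45 ± 0.72 (adjusted p = 0.0942) and Col3a1 -1.61 ± 0.57 (adjusted p = 0.174). Other differences came closer to 0, at -0.44 ± 0.87 for Col1a1, -0.71 ± 0.64 for Col1a2 and -0.07 ± 0.41 for Col4a1 (adjusted p = 0.881, 0.68 and 0.972, limma). With lots 2004097 and 2004907 merged in the block, Lama2 (-2.90 ± 0.55, adjusted p = 0.00483) and Col3a1 (-2.74 ± 0.57, adjusted p = 0.00862, limma) were called, and Col1a1, Col1a2 and Col4a1 were not (-1.13, -1.68 and -0.98). In both blocks the wild-type side was pool 40 alone, which had the highest Col7a1 of the pools (1822, against 1421 and 1224). With the lots as numbered, the tumor side was tumors 22, 24 and 26 of lot 2001815. Without that lot, neither Col13a1 (-1.27) nor Col7a1 (-0.72) was called against wild type. Against adjacent gland, 9 falls stayed called with the block, including Col3a1 (-2.14), Lama2 (-2.41), Nid1 (-1.80) and the 3 chains of collagen VI. These differences are those within lot 2001815, the only lot as numbered that held both groups. A fit within that lot alone gave the same differences with another estimate of spread, so it is not a second check. There Col3a1, Col6a1, Col13a1 and Col7a1 were called against adjacent gland.

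Probe sets of the same gene did not always give the same size. Of the 9 genes with more than 1 tested probe set, Col1a2 had one that was not called and lay on the other side of 0 (0.54 ± 0.27 against -1.78 ± 0.33), and Col1a1 one that was not called (-0.58 ± 0.26). The 4 probe sets of Col18a1 all fell, with differences from -0.73 to -3.50, and those of Col5a1 were -0.84 and -2.20. The value given for each gene is that of its brightest probe set.

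**Figure D5:**
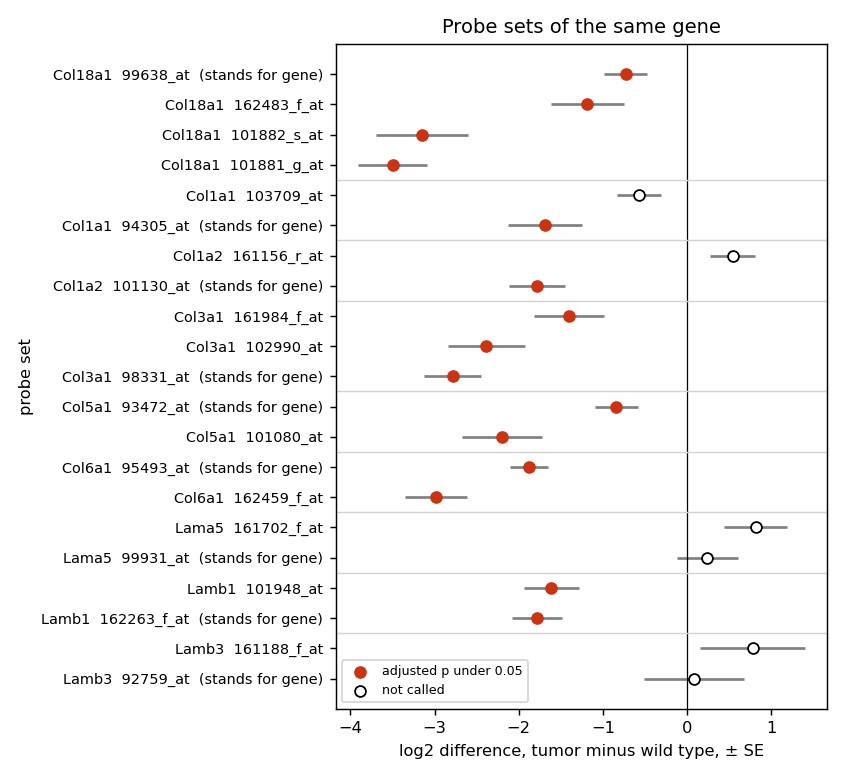
Log2 difference ± SE of tumors minus wild-type gland (x axis) for each tested probe set of the 9 genes that have more than 1; filled points have an adjusted p under 0.05. The Col18a1 probe sets run from -0.73 to -3.50, and 1 Col1a2 probe set lies above 0.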

How the data were processed

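RNA of 14 mammary samples was measured on 1-color arrays, and the deposited table holds 1 linear intensity per probe set and array. The trimmed means were nearly equal, so the values were taken as scaled by the authors and were not normalized again. Array software: not given in the sources used here. Values under the 20th percentile (101.42) were set to it and log2 was taken. A probe set was tested if 3 or more arrays had it above their 40th percentile, which left 8616. Platform symbols were updated by gene number (GRCm38.p6).

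The 4 groups were fitted jointly with limma 3.58.1 (R 4.3.3; lmFit, then eBayes with trend), and the code was checked on simulated data. Tests were two-sided, adjusted by Benjamini-Hochberg over all probe sets tested, and the probe set with the highest mean stood for a gene. All genes of the rule are named. Values per array were planned for up to 4 called genes per class with the largest change against wild type. They were printed for part of these, with Col5a2, Col1a1 and others left out. Col4a5 and the uncalled laminin chains Lama4 and Lamb3 were added after their values were seen. Genes and lists were chosen with earlier results of these data known.

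The comparison of pairs was added after the data had been seen. It was first run on 7 pairs picked by hand with their values known, and those were then replaced by all 27 pairs of tested chains within 8 protein families, because a set picked by its values gives no fair test. The families and the removal of lot 2001815 were likewise chosen after seeing the data.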

Additional observations from a re-analysis of the deposited data

Results flagged for a closer look

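In 72 sets of values, 1 gene in 1 group of 4 or 5 arrays each, 4 had a sample far from the others, and chance flags about 1 in 20 such sets. In adjacent gland 51, Col1a2 had an intensity of 26946.1 where the other adjacent glands had 12169.4 to 13375, and Col3a1 had 38535.2 where they had 16916.8 to 19073.3. In adjacent gland 25, Col17a1 had 213.7 where the others had 893.2 to 1063.5. In tumor 26, Col9a3 had 1625.8 where the other tumors had 3162.2 to 4053.3.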

How the results depend on the processing

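The number of genes called in tumors against wild type was 26, and 21 to 25 with 1 array left out. It fell to 3 with lot as a fixed block and to 14 with lots 2004097 and 2004907 merged in the block; no lot as numbered joins tumors with wild type, so the block rests on a chain of lots. In that chain, also with the merged lots, the wild-type side is pool 40 alone. With the lots as numbered, the tumor side is tumors 22, 24 and 26. Against adjacent gland the count of 26 fell to 9 with the block and to 4 within lot 2001815, and was 18 to 26 with an array left out. As numbered, the block and the fit within the shared lot give equal differences, here and for adjacent gland against wild type. They differ only in the estimate of spread. In adjacent gland against wild type the count of 1 became 0 with the block, with merged lots and within lot 2004907, and was 0 to 2 with an array left out (0 without pool 42, 2 without adjacent gland 51). For set B against wild type it was 24, and 16 to 23 with an array left out; set B has its own lot, so no fixed block could be fitted. Set B against the first tumors was 0 throughout, 0 to 0 with an array left out. Scaling, the floor, the filter and the random block kept the total counts of called genes within 1.5 times. With equal medians and also without the filter, the higher calls against wild type went from 5 to 3 and the basement membrane calls against adjacent gland from 11 to 6. Over 34 named results, 564 of 642 alternative values kept their direction and call, 78 lost the call and 0 reversed. These results were picked as the called genes with the largest change in each class, and the alternatives refit the same arrays. The share kept is therefore high in part by that choice and does not hold for other calls. Col4a5, Col18a1 and Hspg2 are not among them. Without lot 2001815, chosen after seeing the data, Col13a1 lost its call in both tumor comparisons. Of the named results, Col7a1 (-1.01) and Lama3 (-1.53) also lost their calls against adjacent gland there. Scaling arrays to equal medians moved the median of adjacent gland minus wild type over all probe sets from 0.07 to -0.10, and that of the 36 genes from -0.03 to -0.20.

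The result of the pairs depends on which pairs are tested. The 7 pairs first picked by hand all passed in tumors against wild type (adjusted p = 0.0357, exact permutation test) and 6 of 7 against adjacent gland, where among all 27 pairs 0 and 10 pass. The first 7 included Col9a1 against Col3a1, which do not belong to the same family. With an array left out, none of the 10 passed (adjusted p from 0.0643 to 0.0964), since the smallest exact p grows with fewer arrays. Under quantile normalization Col9a1 against Col9a3 and Lama3 against Lama4 did not pass (adjusted p = 0.0779, exact permutation test). No paired analysis was run, because the labels do not say which samples shared an animal. If tumors and adjacent glands were matched, the tests treated matched samples as independent.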
